A study of Mus musculus with 42 samples.

Results

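The respiratory chain and ATP synthase subunits encoded in the nucleus were measured in the white fat (white adipose tissue, WAT), brown fat (brown adipose tissue, BAT) and liver of mice given water or VAAM, an amino acid mixture that imitates the composition of Vespa larval saliva. Members were all probe sets of the array annotated to a single gene whose symbol named a subunit of complex I (Nduf), II (Sdh), III (Uqcr), IV (Cox4 to Cox8) or V (Atp5). The symbols gave 164 probe sets of 81 genes, out of 34945 probe sets that named 1 gene and 18193 genes in all. Complex I had 33 genes, complex II 4, complex III 8, complex IV 19 and complex V, the ATP synthase, 17. Ndufa4 and Ndufa4l2 were counted with complex IV, where NDUFA4 is now placed. No member probe set measured Cox7b. Of the 13 subunits encoded by mitochondrial DNA, 0 were found by their mt- symbols among the sets that named 1 gene, and other symbols were not searched.

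Complexes I and II pass electrons from NADH and succinate to coenzyme Q, complex III passes them on to cytochrome c and complex IV to oxygen, and ATP synthase uses the proton gradient that this builds. Brown adipocytes are packed with mitochondria whose uncoupling protein Ucp1 lets protons back without ATP being made, and brown fat is known for much respiratory chain and little ATP synthase. Several complex IV subunits come as pairs of genes, a form found in most tissues and a form known from heart, skeletal muscle and brown fat, and subunit c of ATP synthase comes from 3 genes whose mature proteins are the same.

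Male ddY mice, an outbred stock, were 5 weeks old on arrival. Each group held 7 mice, and 42 arrays were used (3 tissues, 14 arrays each). The VAAM group received 37.5 µL/g of a 1.8% solution by feeding tube on 5 days and the water group the same volume of water, and tissues were taken 4 h after the last dose. The samples are called water 1 to 7 and VAAM 1 to 7 after the numbers in their labels, and each is described as a separate mouse, so that p-values measure the spread between mice. The labels do not state that a number marks the same animal in all tissues. The depot of the WAT was not stated.

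Values were deposited on a logarithmic scale, read here as log2, and come from a summary (distribution free weighted, DFW) that draws the arrays of a tissue close together. The median SD of a probe set over the 14 arrays was 1.08e-05 in liver, 1.41e-05 in WAT and 1.06e-05 in BAT on that scale, and that of the members was 9.21e-06, 1.59e-05 and 5.69e-06. The spread differed between probe sets by orders of magnitude, so VAAM and water mice are compared in units of the pooled SD within the groups (written SD below). The tissues appear to have been summarised separately, and limma at an adjusted p of 0.05 called between 44933 and 45004 of 45037 probe sets between tissues of the water mice. Differences between tissues are therefore given as a description, and a gene counts as past the limit where its means differ by more than 1 log2 unit. A gene with several probe sets (48 of the 81) is represented by the set with the highest mean over the 42 arrays, and levels are never compared between probe sets.

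The tissue labels were checked against marker genes in the water mice. Ucp1 stood at 14.2 in BAT against 6.36 in WAT and 6.39 in liver. The leptin gene Lep stood at 10.9 in WAT, 7.14 in BAT and 6.39 in liver. The albumin gene Alb stood at 15.0 in liver, 7.04 in WAT and 6.57 in BAT. Some arrays stood apart from their group. Water 1, water 2 and VAAM 1 had mean standardised values of 0.804, 1.656 and 1.627 for 11 epididymis and testis markers in WAT, where the other 11 arrays lay between -0.646 and 0.299. Skeletal muscle markers varied widely among the BAT arrays. Fewer cells of a type and less RNA per cell cannot be told apart in such bulk tissue.

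The complex IV paralogues Cox7a1 and Cox8b, the heart and muscle forms of subunits 7a and 8, differed most between the tissues, and the stretch upstream of each gene is shown beside that of its widely expressed paralogue (Cox7a2 and Cox8a), because the members differ there in a feature the choice of genes did not use. The sequences are the 250 bases before the transcript start in RefSeq on GRCm38.p6, 5′ to 3′ on the strand of the gene, with each CG dinucleotide in capitals. Cox7a1 is at chr7:30183921-30184170 on the plus strand, Cox7a2 at chr9:79759854-79760103 on the minus strand, Cox8b at chr7:140900447-140900696 on the minus strand and Cox8a at chr19:7217617-7217866 on the minus strand.
Cox7a1: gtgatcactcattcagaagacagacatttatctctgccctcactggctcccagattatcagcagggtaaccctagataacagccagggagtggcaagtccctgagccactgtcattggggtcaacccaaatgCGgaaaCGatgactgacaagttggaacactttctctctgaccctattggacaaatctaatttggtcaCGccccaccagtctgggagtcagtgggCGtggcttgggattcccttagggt
Cox7a2: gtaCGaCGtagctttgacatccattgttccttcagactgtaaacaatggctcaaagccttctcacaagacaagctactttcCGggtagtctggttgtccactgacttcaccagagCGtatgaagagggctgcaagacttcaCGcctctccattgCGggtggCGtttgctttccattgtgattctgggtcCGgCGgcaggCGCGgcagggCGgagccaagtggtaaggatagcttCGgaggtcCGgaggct
Cox8b: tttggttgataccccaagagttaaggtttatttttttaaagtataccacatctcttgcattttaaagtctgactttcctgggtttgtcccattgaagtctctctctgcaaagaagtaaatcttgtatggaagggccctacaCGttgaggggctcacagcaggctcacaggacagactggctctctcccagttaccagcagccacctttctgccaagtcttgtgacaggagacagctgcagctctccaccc
Cox8a: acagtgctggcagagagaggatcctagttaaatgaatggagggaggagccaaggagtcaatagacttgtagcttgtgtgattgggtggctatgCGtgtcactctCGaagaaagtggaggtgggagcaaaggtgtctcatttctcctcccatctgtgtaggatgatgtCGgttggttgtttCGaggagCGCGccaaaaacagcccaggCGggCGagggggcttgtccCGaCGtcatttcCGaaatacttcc

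The Cox7a1 stretch held 4 CG dinucleotides and the Cox7a2 stretch 14, and the Cox8b stretch held 1 and the Cox8a stretch 11. Of the 81 genes, 66 had a promoter in the RefSeq table, with a median of 14 CG dinucleotides against 6 over all 27025 promoters. Only Cox8b, Cox7a1 and the complex I subunit gene Ndufc2 had 4 or fewer among these 66 (4.55%, against 44.5% of all promoters). The cut of 4 equals the count of Cox7a1 itself, so Cox7a1 and Cox8b had to fall within it. Ndufc2, with 4, lay only 1.09 log2 units higher in BAT than in WAT. Uqcr10, a complex III gene, came next with 5 and lay 1.82 higher. Cox6a2, the muscle form of subunit 6a, was not among the 66.

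Cox7a1 had nearly the same value in all 7 water mice of a tissue: 6.47 in liver, 6.90 to 6.91 in WAT and 13.10 in BAT. By these values BAT was 6.19 log2 units above WAT and 6.63 above liver. Cox7a2 was high everywhere, at 13.31 in liver, 12.998 in WAT and 13.81 in BAT, so that BAT was 0.81 above WAT by this set and 0.76 by its other set. Cox8b had means of 6.62 in liver, 7.80 in WAT and 14.08 in BAT, 6.29 log2 units higher in BAT than in WAT and 7.46 higher than in liver. Cox8b was also lower in liver than in WAT, by a difference of -1.18. Cox8a had means of 11.70 in liver, 12.70 in WAT and 13.06 in BAT. BAT was 0.36 above WAT by that set and 1.12 by another set of Cox8a over 9, so the size for Cox8a differed between sets and its direction did not.

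**Figure D1:**
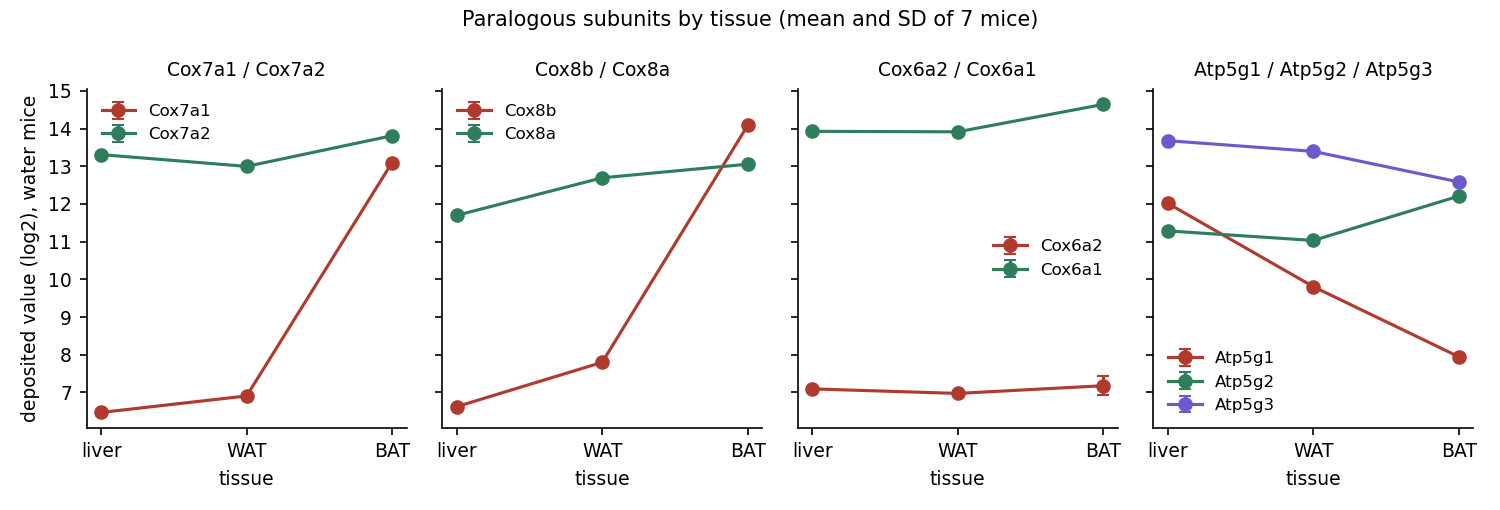
Deposited log2 level (vertical axis, mean ± SD of 7 water mice) in liver, WAT and BAT (horizontal axis) for the pairs Cox7a1 and Cox7a2, Cox8b and Cox8a, Cox6a2 and Cox6a1, and the subunit c genes Atp5g1, Atp5g2 and Atp5g3. Cox7a1 and Cox8b rise from at most 7.80 in WAT to 13.10 and 14.08 in BAT while their paralogues stay high, and Atp5g1 falls from 12.01 in liver to 9.81 in WAT and 7.95 in BAT.

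The remaining complex IV paralogues differed less between tissues. Cox6a1, the widely expressed form of subunit 6a, was 0.73 higher in BAT than in WAT (1.67 by its second set), and Cox6a2 had a mean of 7.18 in BAT, 6.97 in WAT and 7.09 in liver. Cox4i1, the common form of subunit 4, was 0.91 higher in BAT than in WAT, and Cox4i2, the form known from lung and low oxygen, stayed between 6.71 and 6.78 in the 3 tissues. Cox6b1 was 1.23 higher in BAT than in WAT, and Cox6b2, known from testis, 0.63 higher at a level of 7.45 in BAT. Cox7a2l, a relative of Cox7a2 that joins complexes into supercomplexes, was 0.94 higher. Ndufa4 was 1.17 higher and its relative Ndufa4l2 0.42 higher. The testis forms Cox7b2 and Cox8c differed between BAT and WAT by -0.11 and -0.51. The sets of Cox6a2, Cox4i2, Cox7b2, Ndufa4l2, Cox6b2, Ndufb4 and Cox7c, 7 of the 81, had means under 8 in all tissues, where a difference is hard to read.

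Across the complexes, the subunit genes were higher in BAT than in WAT. Of the 81 genes, 75 were higher and 54 were past 1 log2 unit (66.7%), against 2.54% of all 18193 genes. In the other direction 1 of 81 was past the limit, against 6.78% of all genes. The median difference was 1.18 over the 81 genes and -0.11 over all genes. Leaving out any array left the median at 1.18 and the count at 54. DFW had already drawn the arrays of a tissue close together, so this check could hardly move them. It does not show whether water 1 and water 2 of WAT matter. The SD over the 7 water mice of a tissue was at most 0.0184 log2 units (Atp5g1 in BAT) for the representative sets other than Sdhd, with 0.541 in liver, 0.368 in WAT and 0.784 in BAT, and Cox6a2, with 0.248 in BAT.

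Complex II, the succinate dehydrogenase shared with the tricarboxylic acid cycle, had the highest median (1.65), with all 4 genes past the limit. Sdha, the flavoprotein, was 1.49 higher in BAT than in WAT, Sdhb, the iron-sulfur subunit, 1.76, and the membrane anchors Sdhc and Sdhd 1.53 and 1.93. With any water array left out the Sdhd difference ran from 1.80 to 2.22. Complex III had a median of 1.46 with 8 of 8 past the limit, among them Uqcr10, a small subunit, at 1.82. Complex I had a median of 1.20 and all 33 genes were higher, 24 of them past the limit. Its lowest difference was 0.16 (Ndufb4, at a level under 8) and its highest 1.86, for Ndufs1, the largest iron-sulfur subunit. Complex V had a median of 1.14 with 14 of 17 genes higher and 11 past the limit. Complex IV had the lowest median, 0.81, with 16 of 19 genes higher and 7 past the limit, although it also held Cox7a1 and Cox8b. Of its 19 genes, 6 are among those under 8 in all tissues. Where a gene had several sets over 9, they gave the same direction in 35 of 37 genes, and Cox6c and Ndufa7 were the exceptions.

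**Figure D2:**
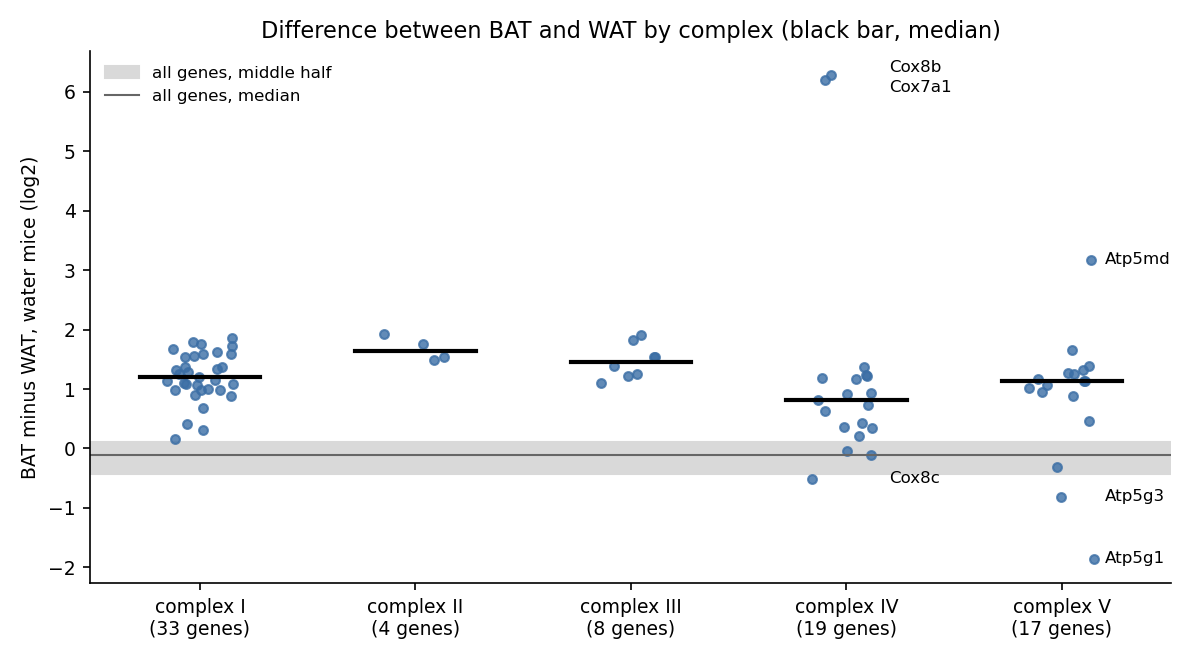
Difference of mean log2 level between BAT and WAT of 7 water mice each (vertical axis) for the 81 genes, by complex (horizontal axis), with 1 point per gene and a black bar at each median. The line and band give the median of all 18193 genes, -0.11, and the span between their quartiles, -0.42 and 0.11. Nearly all points lie above the band, Cox7a1 and Cox8b lie far above the others, and Atp5g1 is the lowest at -1.86.

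The ATP synthase genes held both extremes apart from Cox7a1 and Cox8b. Atp5md, which encodes a small membrane subunit, had means of 10.14 in liver, 8.83 in WAT and 12.01 in BAT, and it came next after those genes at 3.17 log2 units above WAT. The genes of subunit c, which forms the rotating ring of the membrane part, did not move alike, and their upstream stretches are shown to set them beside each other for motifs of factors known to act on mitochondrial genes. The motifs were the NRF-1 sequence GCGCATGC, the estrogen-related receptor sequence TCAAGGTCA and the ETS sequence CCGGAAGT, searched on both strands, and a motif found is in capitals. No member promoter held more than 1 of these motifs. In Atp5g2 the NRF-1 motif matches on both strands at overlapping positions, so its capitals run past the letters of a single match. The stretches are 250 bases before the transcript start from RefSeq on GRCm38.p6, all on the minus strand: Atp5g1 at chr11:96075632-96075881, Atp5g2 at chr15:102671048-102671297 and Atp5g3 at chr2:73911327-73911576.
Atp5g1: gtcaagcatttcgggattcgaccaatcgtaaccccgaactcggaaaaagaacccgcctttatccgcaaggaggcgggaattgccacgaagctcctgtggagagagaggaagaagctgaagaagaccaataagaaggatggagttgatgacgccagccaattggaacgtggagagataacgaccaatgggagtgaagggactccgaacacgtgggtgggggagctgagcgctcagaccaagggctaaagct
Atp5g2: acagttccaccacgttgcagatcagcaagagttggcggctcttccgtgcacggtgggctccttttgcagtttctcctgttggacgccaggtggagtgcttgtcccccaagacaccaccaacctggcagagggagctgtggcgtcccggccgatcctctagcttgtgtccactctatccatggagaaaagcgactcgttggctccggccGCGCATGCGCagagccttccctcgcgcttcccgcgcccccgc
Atp5g3: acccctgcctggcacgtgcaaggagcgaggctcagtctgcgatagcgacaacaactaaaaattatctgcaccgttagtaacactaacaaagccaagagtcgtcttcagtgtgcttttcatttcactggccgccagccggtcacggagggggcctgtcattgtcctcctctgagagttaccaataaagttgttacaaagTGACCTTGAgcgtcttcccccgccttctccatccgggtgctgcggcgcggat

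Atp5g1 had a mean of 12.01 in liver, 9.81 in WAT and 7.95 in BAT. In the 7 water mice of BAT it ran from 7.92 to 7.98. The difference was -1.86 log2 units for BAT against WAT and -4.07 for BAT against liver, while liver was 2.21 above WAT. Atp5g1 encodes the P1 form of subunit c, which is known to be scarce in brown fat and to limit the amount of ATP synthase there. Atp5g2 went the other way, 1.18 higher in BAT than in WAT. Atp5g3 had means of 13.68 in liver, 13.40 in WAT and 12.59 in BAT, a difference of -0.81 between BAT and WAT. Atp5j, which encodes coupling factor 6 of the stalk, differed by -0.32 between BAT and WAT and by -0.98 between BAT and liver.

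The Atp5g1 stretch held none of the 3 motifs, the Atp5g2 stretch held the NRF-1 motif and the Atp5g3 stretch the estrogen-related receptor motif. The NRF-1 motif was in 7 of the 66 member promoters (10.6%, against 2.32% of all 27025), the estrogen-related receptor motif in 1 (1.52%, against 0.366%) and the ETS motif in 3 (4.55%, against 2.93%). The 7 genes with the NRF-1 motif (Atp5g2, Atp5k, Atp5l, Cox6a1, Ndufa6, Ndufa8 and Sdhb) had a median difference between BAT and WAT of 1.18, and the genes without it 1.20. A match of these letters is a description of the sequence, not of binding.

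Liver and WAT differed much less in these genes. In liver, 60 of 81 genes were higher than in WAT with a median of 0.20, and 3 were past the limit (3.7%, against 5.61% of all genes). These were Atp5g1 at 2.21, Atp5md at 1.31 and Uqcrq, a complex III subunit at the coenzyme Q site, at 1.01. Cox8b, at -1.18, was the 1 gene past the limit downwards, against 12.5% of all genes. Cox8a followed at -0.996 and Cox8c at -0.68. The probe sets over 9 gave the same direction in only 20 of 35 genes, so the small differences between liver and WAT depended on the set. Complex III had a median of 0.63, complex II 0.58, complex V 0.31, complex I 0.15 and complex IV 0.03, which differ by less than 1 log2 unit.

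BAT was also above liver. Of the 81 genes, 76 were higher in BAT, 34 of them past the limit (42%, against 7.17% of all genes), with a median of 0.95 against 0.05 over all genes. Atp5g1 and Atp5g3, at -4.07 and -1.09, were the 2 genes past the limit downwards, against 6.82% of all genes. Cox8b and Cox7a1 had the highest differences, followed by Ndufs1 at 1.93. The medians were 1.20 for complex II, 1.13 for complex III, 0.997 for complex I, 0.90 for complex V and 0.79 for complex IV. The sets over 9 gave the same direction in 36 of 37 genes, all but Cox7a2l.

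The genes around the respiratory chain were also higher in BAT than in WAT. Of all genes, 2.54% were past the limit in that direction. The tricarboxylic acid cycle, which feeds the chain with NADH and succinate, had 13 of 13 measured genes higher and 11 past the limit (84.6%). Its median was 1.83. Electron carriers and coenzyme Q synthesis had 16 of 18 genes higher and 12 past the limit (66.7%), with a median of 1.30. Cyc1, the cytochrome c1 of complex III that the symbol pattern leaves out, was 1.91 higher. The assembly factors, which build the complexes and are not part of them, had 39 of 43 genes higher but 10 past the limit (23.3%). Their median was 0.49. Atpif1, the inhibitor of ATP synthase, was lower in BAT than in WAT, at -1.84. Against liver, the tricarboxylic acid cycle genes stood 1.96 higher in BAT by the median, and Cs, the citrate synthase gene, 3.90 higher. Suclg2 was the 1 gene of that list that was lower in BAT than in liver, at -1.695.

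Cox6a2 varied between the BAT samples of single mice as skeletal muscle markers did. In BAT the water mice 1 to 7 had Cox6a2 values of 7.65, 7.02, 7.38, 7.02, 7.03, 7.004 and 7.13, and the VAAM mice 1 to 7 had 7.51, 6.999, 7.01, 7.13, 7.39, 7.01 and 7.52. Water 1 and 3 and VAAM 1, 5 and 7 were high, and the groups overlapped. The mean standardised value of 16 skeletal muscle markers, with the group means removed, was 1.71 and 0.971 in those water mice and 1.01, 0.802 and 1.28 in those VAAM mice. The other 9 arrays lay between -0.975 and 0.069. The muscle actin gene Acta1 ran from 7.32 to 15.1 in the BAT of water mice.

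Over the 14 BAT arrays, with the group means removed, Cox6a2 and the muscle score had a Pearson r of 0.990 and a Spearman rho of 0.960 (permutation p = 2e-05, the smallest that 100000 resamples can give, adjusted over 3 genes 6e-05). Without the 2 arrays farthest from the median score r was 0.987, within the water mice it was 0.987 (exact permutation p = 0.00278) and within the VAAM mice 0.994 (exact permutation p = 0.000397). The rank correlation within the water mice was 0.714 (exact permutation p = 0.0881). All 16 markers had an r over 0.9 with Cox6a2, from 0.956 to 0.997. Cox7a1, also known from muscle, had an r of 0.0385 with the score (permutation p adjusted 0.943, rho -0.0198 with adjusted p 0.954), and its r without the 2 farthest arrays was 0.416. Within the water mice Cox7a1 had an r of -0.649 and within the VAAM mice 0.455, neither passing the exact test. Cox8b had an r of -0.546 (permutation p = 0.0449, adjusted 0.0673, rho -0.508), which fell to -0.215 without the 2 farthest arrays.

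**Figure D3:**
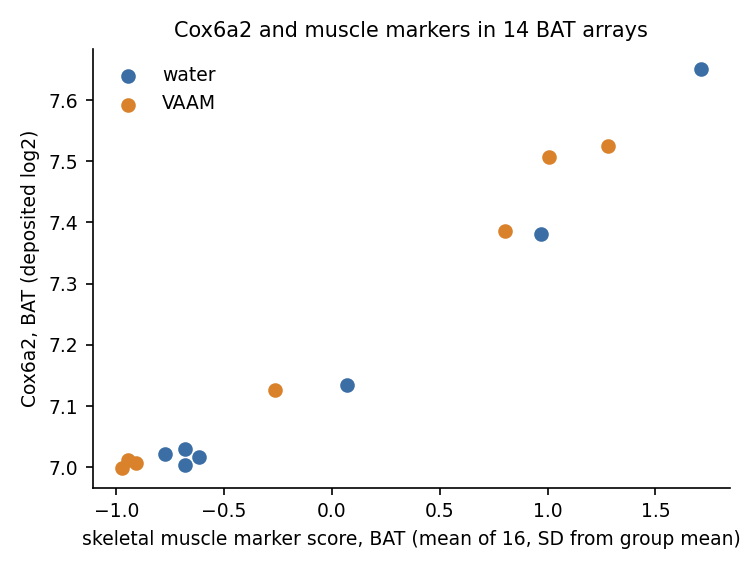
Deposited log2 level of Cox6a2 in BAT (vertical axis) against the mean standardised value of 16 skeletal muscle markers with the group means removed (horizontal axis), with 1 point per mouse for 7 water and 7 VAAM mice. Water 1 is highest on both axes, at 7.65 and 1.71, and the arrays of both groups lie along the same line.

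The comparison of VAAM with water mice asked whether the amino acid mixture changed these genes in any of the tissues. With limma and Benjamini-Hochberg adjustment over 45037 probe sets, 0 of the 164 member sets passed an adjusted p of 0.05 in liver, WAT or BAT, and the background was 0% of all sets in each tissue. The smallest adjusted p of a member was 0.330 in liver, 0.9998 in WAT and 0.926 in BAT. At an unadjusted p of 0.05, 15 member sets were lower and 0 higher in VAAM mice in liver, against 4.92% and 4.17% of all sets. In WAT 1 was lower and 3 higher, against 2.1% and 1.65%. In BAT 7 were lower and 0 higher, against 2.93% and 2.16%. These counts depended on the scaling. After quantile normalization 3 member sets were lower and 0 higher in liver, against 6.66% and 0.688% of all sets, so that the share of members, 1.83%, was then under that of all sets. In WAT and BAT 0 members were lower or higher after it, against 0.164% and 0.0311% of all sets in WAT and 0.162% and 0.0955% in BAT. With the replicate number as a block, 2 were lower and 0 higher in BAT, against 2.98% and 2.46%. A fit over the 42 arrays together called 2 member sets in liver at an adjusted p of 0.05, of Cox8a and Ndufs3, and 0 in WAT and BAT, against 1.53%, 0.286% and 0.699% of all sets. The values of the water and VAAM mice overlapped in all 164 member sets in each tissue, and they did not overlap in 0.155% of all sets in liver, 0.0488% in WAT and 0.0955% in BAT.

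Whether the effect of VAAM differed between tissues was tested by a linear model fitted with limma on values scaled by the SD of each tissue. The paper collected liver, WAT and BAT from the same mice, so the arrays of different tissues are not independent. This test was not run with the replicate number as a block. At an adjusted p of 0.05 0 member sets passed for liver against WAT, liver against BAT or WAT against BAT, and 0%, 0.00444% and 0% of all sets did. At an unadjusted p of 0.05, 6, 6 and 4 member sets passed, against 9.06%, 7.42% and 4.57% of all sets.

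In liver, the lowest gene was Cox8a at -2.20 ± 0.698 SD (± SE, 7 mice a group), and 7 of 7 VAAM mice lay below the median of the water mice (exact permutation p = 0.00291, limma adjusted p = 0.330). Its values agreed to 3 decimals of the log2 scale, 11.699 in all 14 mice. Ndufs3, a core subunit of complex I, and Atp5a1, the alpha subunit of ATP synthase, followed at -1.75 ± 0.643 SD each. The highest genes in liver were the complex III hinge gene Uqcrh at 0.78 ± 0.558 SD, Cox7b2 at 0.71 and Sdhd at 0.58 ± 0.547 SD. Quantile normalization turned Uqcrh to -0.53 SD, and without VAAM 1 Cox7b2 stood at 0.45 SD. The lowest and highest genes of liver, WAT and BAT were picked by the same differences that the exact test uses. Their exact p-values are not adjusted for that choice, so a small value among them is not evidence of an effect by itself. The 15 lower sets, 9.15% of the 164, belonged to all 5 complexes. They were 6 of 71 sets of complex I, 3 of 9 of complex II, 2 of 16 of complex III, 3 of 37 of complex IV and 1 of 31 of complex V. Sdha was -1.63 ± 0.630 SD in liver (exact permutation p = 0.00816) with 2 of its sets among the 15. Sdhb was -0.89 ± 0.564 SD. Sdhc had 1 set among the 15 at -1.53 SD, while its representative set stood at 0.34 ± 0.539 SD, so its sets did not have the same sign.

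In WAT, the accessory complex I gene Ndufb10 was lowest at -1.40 ± 0.606 SD (exact permutation p = 0.0221), then Atp5md at -1.04 and Ndufs3 at -0.91. Cox6a2 was highest at 1.39 ± 0.606 SD, and 7 of 7 VAAM mice exceeded the median of the water mice (exact permutation p = 0.0163). Cox7c and Cox6c, genes of small complex IV subunits, were 1.04 and 0.77. All 3 changed sign under quantile normalization, with Cox6a2 at -0.67, Cox7c at -0.42 and Cox6c at -0.21 SD. The sets of Cox6a2 and Cox7c are also among those under 8 in all tissues. The second set of Cox6a2 went the other way, with medians of 6.36139 in water and 6.36137 in VAAM mice. Single arrays also moved the differences in SD, since Atp5md was -1.90 without VAAM 7, Ndufs3 -1.37 without VAAM 2 and Cox6c 1.53 without VAAM 6. Cox7a1 in WAT stood at -0.13 ± 0.535 SD and Cox8b at -0.44 ± 0.542 SD, with differences that did not pass the exact test. None of the named genes passed limma's adjusted p in WAT.

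In BAT, Ndufb7, a complex I accessory subunit gene, was lowest at -1.47 ± 0.613 SD, followed by Atp5o, which encodes the stator subunit OSCP, at -1.43 ± 0.609 SD. Cox7a1 was -1.38 ± 0.604 SD and none of the 7 VAAM mice exceeded the median of the water mice (exact permutation p = 0.0111, limma adjusted p = 0.933), but quantile normalization turned it to 0.20 SD. Its paralogue Cox7a2 was -0.50 ± 0.544 SD, and Cox8b and Cox8a were -0.18 ± 0.536 and -0.63 ± 0.550 SD. Atp5g2 was -1.22 ± 0.590 SD, and Atp5g1, with 0.12 ± 0.535 SD, and Atp5g3, with -0.32 ± 0.539 SD, did not pass the exact test. The highest were Ndufb4 at 0.86, Cox4i2 at 0.84 and Sdhd at 0.54 ± 0.546 SD, and quantile normalization turned Ndufb4 to -0.13 and Cox4i2 to -0.093 SD. Ndufb7 was -2.55 SD without VAAM 5. Without water 7 Cox4i2 was 1.57 and Ndufb4 1.29 SD, and without VAAM 4 Ndufb4 was 1.31 SD.

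Over the 81 genes, more were lower than higher in VAAM mice. In liver 52 of 81 were lower with a median of -0.31 SD, in WAT 58 with -0.24 SD and in BAT 64 with -0.43 SD, while over all 18193 genes 9540, 9049 and 8766 were lower with medians of -0.04, 0.00 and 0.03 SD. In liver, 6 of 6 macrophage markers were also higher in VAAM mice with a median of 0.67 SD (mean standardised values of -1.212 to 0.493 in water mice and -0.667 to 2.152 in VAAM mice), and 6 of 8 hepatocyte markers with a median of 0.75 SD (-1.073 to 0.778 and -0.038 to 1.085). A downward lean was not particular to the 81 genes in liver and WAT. In liver 14 of 16 skeletal muscle markers (median -0.42 SD) and 6 of 7 brown adipocyte markers (-0.61 SD) were lower. In WAT 5 of 7 brown adipocyte markers were lower (-0.84 SD), and 9 of 16 skeletal muscle markers were higher. In BAT 5 of 7 brown adipocyte and 16 of 16 skeletal muscle markers were higher. The part of these lists in the medians of the 81 genes was not tested. Members vary together in a mouse, and single mice carried much of the medians of the 81 genes. Without VAAM 6 the liver median was -0.078 SD. Without VAAM 1 or VAAM 6 the WAT median was -0.035 or -0.101 SD. Without VAAM 3 the BAT median was -0.056 SD, with 43 of 81 genes lower.

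VAAM 3 in BAT was the lowest of the 14 arrays in 64 of the 81 genes, against 18.5% of all genes. It was lowest in 31 of 33 complex I genes, 3 of 4 of complex II, 7 of 8 of complex III, 11 of 19 of complex IV and 12 of 17 of complex V. It was also lowest in 13 of 13 tricarboxylic acid cycle genes and 26 of 43 assembly factors. Its mean standardised value over the 81 genes was -2.15, where the other 13 arrays lay between -0.208 and 0.645. The mean standardised value of 6 macrophage markers in that array was 1.715, the highest of the 14, that of 7 brown adipocyte markers 0.389 and that of 18193 genes -0.164, and their part in the low subunit values was not tested.

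**Figure D4:**
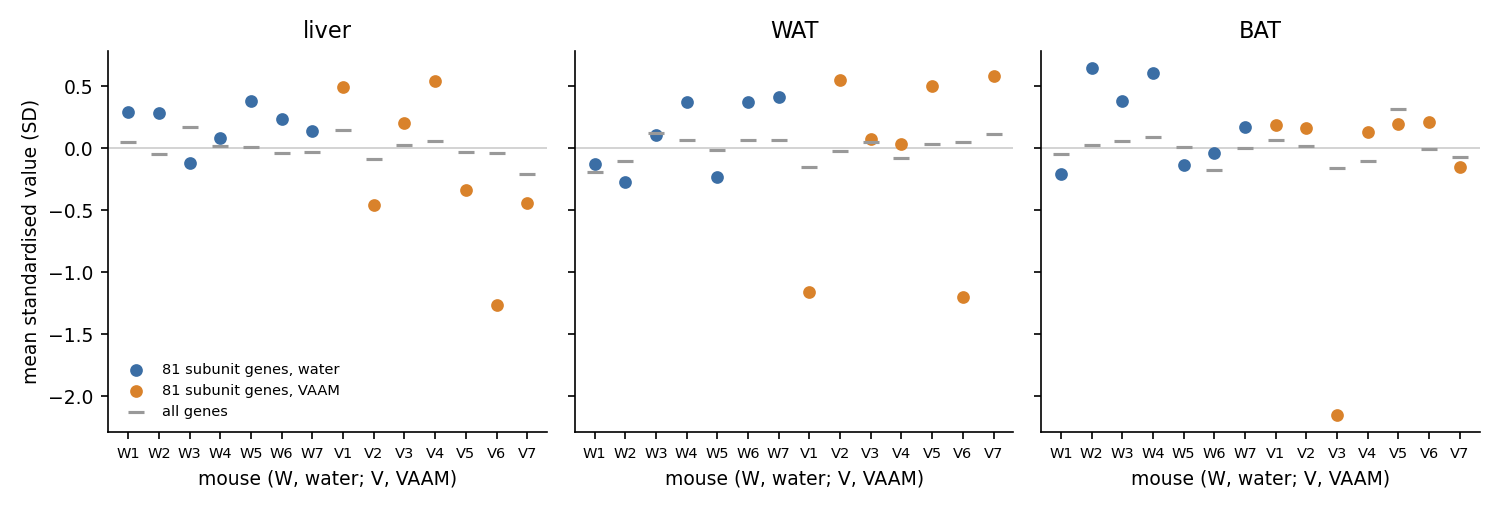
Mean standardised value in units of SD (vertical axis) of the 81 subunit genes for each water and VAAM mouse (horizontal axis) in liver, WAT and BAT, with the mean over all 18193 genes as dashes. VAAM 3 in BAT lies at -2.15, and VAAM 6 in liver and VAAM 1 and VAAM 6 in WAT lie between -1.27 and -1.16, below the other mice.

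In liver VAAM 6 was lowest in 39 of 81 genes, against 10.4% of all genes, with 20 of them in complex I and 11 in complex V, and its mean over the 81 genes was -1.27. In WAT VAAM 1 was lowest in 42 genes, against 24% of all genes, and VAAM 6 in 22, against 8.04%. VAAM 1 of WAT also had a mean standardised value of -2.43 for 5 white adipocyte markers and -2.08 for the macrophage markers beside its epididymis and testis value of 1.627, and their part in the low subunit values was not tested.

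The lists around the respiratory chain leaned the same way as the 81 genes. In BAT 12 of 13 tricarboxylic acid cycle genes were lower in VAAM mice with a median of -0.67 SD, 17 of 18 electron carrier and coenzyme Q genes with -0.38 SD and 35 of 43 assembly factors with -0.43 SD. In WAT 12, 13 and 28 were lower with medians of -0.48, -0.21 and -0.24 SD, and in liver 7, 14 and 29 with -0.49, -0.28 and -0.15 SD. These lists share their low arrays with the 81 genes. In WAT VAAM 1 was the lowest array in 13 of 13 tricarboxylic acid cycle genes and 10 of 18 electron carrier and coenzyme Q genes. It was lowest in 11 of 43 assembly factors, against 24% of all genes. Limma called 0 of 43 assembly factors, 0 of 18 electron carrier and coenzyme Q genes and 0 of 13 tricarboxylic acid cycle genes in each tissue. At an unadjusted p of 0.05 the assembly factors had 1 gene lower and 0 higher in each tissue. The electron carrier and coenzyme Q genes had 2 lower and 1 higher in liver, 1 and 1 in WAT and 0 in BAT, and the tricarboxylic acid cycle 1 lower gene, in liver.

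The study's own test, rank products at a false discovery rate of 0.05, ranks the deposited differences themselves, whose scale differs between sets. It called 4 member sets higher and 3 lower in liver, against 2.68% and 1.42% of all sets. In WAT it called 3 higher and 4 lower (2.01% and 1.47% of all sets), and in BAT 6 higher and 5 lower (2.17% and 2.24%). Some sets were called in both directions at once, so that these were 5, 6 and 8 different sets. They were the 2 sets of Sdhd, the 2 lesser sets of Uqcr10 and a lesser set of Ndufb8 (sets other than the one that represents the gene) in every tissue, Cox8b in WAT, and Atp5g1 and the 2 sets of Cox6a2 in BAT. After each set was scaled to the same SD the test called 1 of 164 member sets in liver, of Cox8a (0.61%, against 0.853% of all sets), and 0 in WAT and BAT, against 0.169% and 0.373%.

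The sets of Sdhd, Uqcr10 and Ndufb8 shared a pattern of single mice across all 3 tissues, whatever the group. Over all 45037 sets, 0.706% had a correlation of their 14 mouse values above 0.7 in each pair of tissues, and 5 of the 164 member sets did (3.05%), which are these sets. Among the 94 sets whose range exceeded 0.01 log2 units in all 3 tissues, 34 shared such a pattern (36.2%), and 4 of 4 member sets of that range did. The 5 sets were picked out after their values were seen, and the correlation is a description over the same mouse numbers. The other probe set of each gene that was read at a high level did not show it for Uqcr10 and Ndufb8.

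For Sdhd, which anchors succinate dehydrogenase in the membrane, water 2 was low in every tissue. In liver it had 6.77 where the other 13 mice lay between 8.08 and 8.42, in WAT 6.58 against 7.43 to 7.73, and in BAT 7.56 against 9.48 to 9.86. Water 7, VAAM 6 and VAAM 7 were the highest 3 in every tissue, between 8.35 and 8.42 in liver, 7.65 and 7.73 in WAT and 9.83 and 9.86 in BAT. VAAM mice were above water mice by 0.226 log2 units in liver, 0.162 in WAT and 0.306 in BAT. Without water 2 these differences were 0.0253, 0.027 and 0.0126, or 0.214 ± 0.558, 0.267 ± 0.559 and 0.093 ± 0.557 SD. The second set of Sdhd had water 2 lowest in each tissue too, at 7.08 against 7.96 to 8.19 in BAT.

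For Uqcr10, water 1, 3 and 4 and VAAM 5 were high by 1 of its lesser sets. In BAT these 4 lay between 7.55 and 7.59 and the other 10 between 7.22 and 7.25, in liver between 6.95 and 6.97 against 6.85 and 6.86, and in WAT between 6.26 and 6.27 against 6.20 and 6.21. The mice of the 2 levels did not overlap in any tissue, and another lesser set separated the same 4 mice. By the set that represents Uqcr10 all 14 mice of BAT stood at 13.33. For the lesser set of Ndufb8, a complex I accessory subunit gene, water 2 and VAAM 1, 2, 6 and 7 were above the other 9 in each tissue, from 6.764 to 6.769 against 6.758 to 6.760 in BAT, close to the level of undetected sets.

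**Figure D5:**
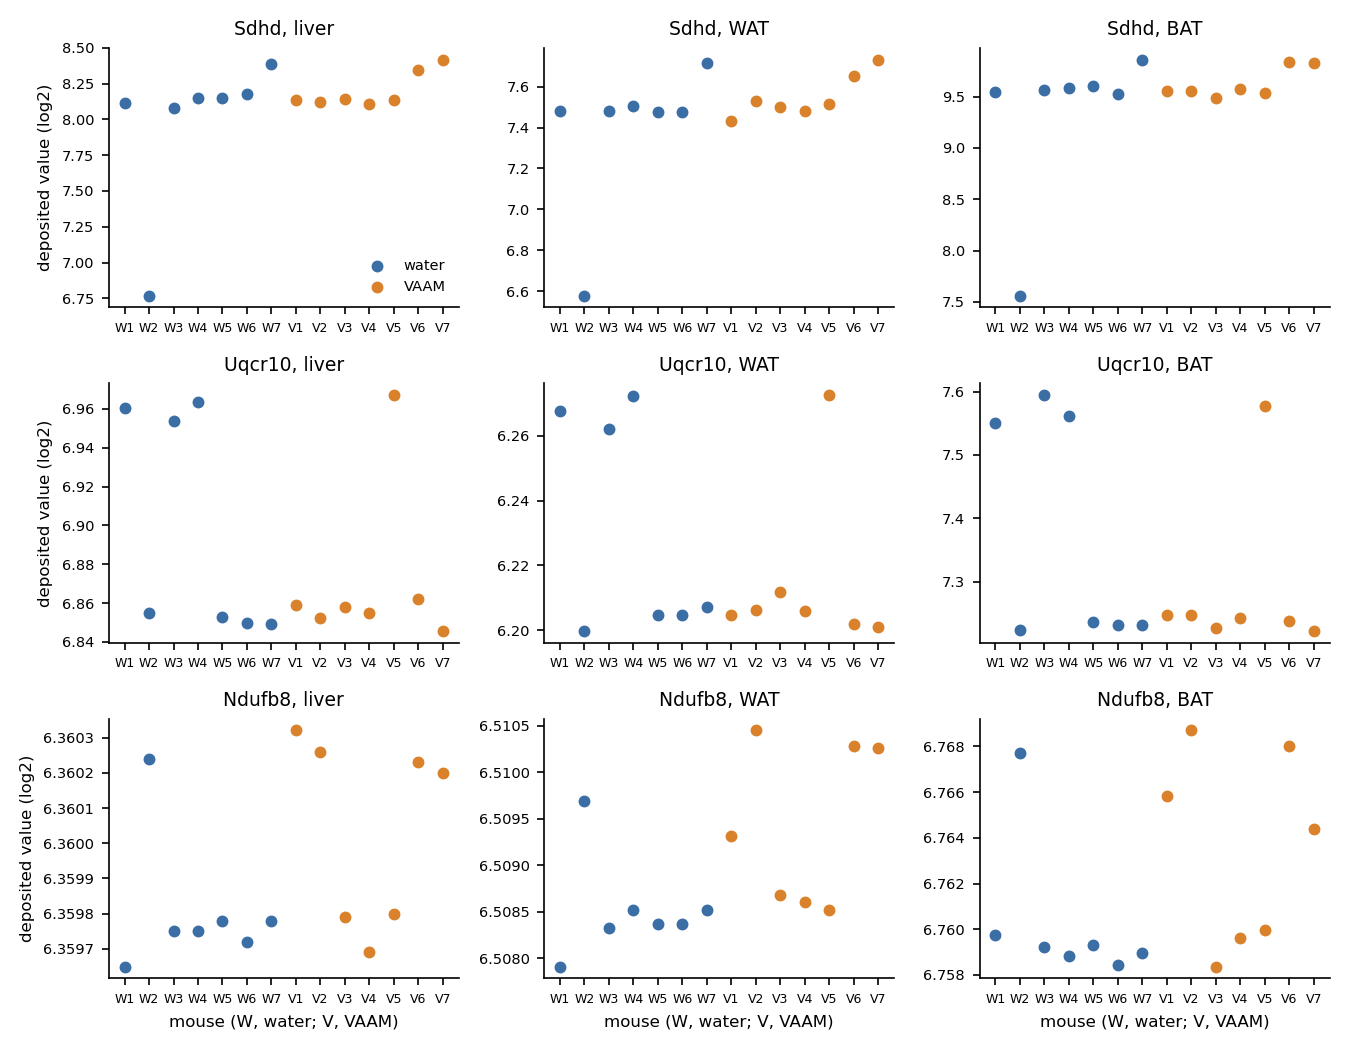
Deposited log2 level (vertical axis, its own scale in each panel) of the sets of Sdhd, Uqcr10 and Ndufb8 that shared a mouse pattern, for water 1 to 7 and VAAM 1 to 7 (horizontal axis), in liver, WAT and BAT. Water 2 is low for Sdhd in each tissue (6.77, 6.58 and 7.56), and the 4 high mice for Uqcr10 are water 1, 3 and 4 and VAAM 5 in each.

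The sets most like these over the 42 standardised values were, for Sdhd on chromosome 9, Golt1b with an r of -0.840 and Acad11, on the same chromosome, with 0.806. For Uqcr10 on chromosome 11 they were Azi2 with an r of 0.779 and Tug1, on the same chromosome, with 0.765. Of the 10 most like genes 4 were on chromosome 11 for Uqcr10 (Tug1, Ccdc117, Ube2d-ps and Nf2), where 8% of the placed genes lie, 1 was on the same chromosome for Sdhd (5.56% of genes) and 0 for Ndufb8 (3.38%). The cause of these patterns was not tested.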

How the data were processed

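RNA from liver, WAT and BAT was hybridised to Affymetrix whole-genome mouse arrays, 1 mouse and tissue per array. The authors summarised the probes with the distribution free weighted (DFW) method and deposited log2 values (the base is taken from their range), using R 2.7.2 according to the submitters' processing notes. DFW shrinks deviations by a factor that differs between probe sets, so deposited differences between mice are not fold changes. The CAAM mice were not analysed here. The number of arrays limits the precision. No array was dropped and no value imputed.

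All 45037 probe sets other than 64 controls were tested with limma 3.58.1 (R 4.3.3) within a tissue, VAAM against water, with Benjamini-Hochberg adjustment and a threshold of 0.05. Beside it stand the difference in units of the pooled SD within the groups with its SE, and an exact two-sided permutation p. That p runs over 3432 assignments, and its smallest value is 0.000583. It is not adjusted for the number of genes or for the choice of the lowest and highest. The platform annotation gave 1 gene for 34945 sets, several for 932 and none for 9160, and 9 sets that name several genes including a member were left out. Promoters came from RefSeq. The marker score is the mean of standardised values over a list, and permutation p-values of correlations used 100000 resamples and are two-sided. Other computation used Python 3.11.15, numpy 2.4.6, pandas 2.3.3, scipy 1.17.1 and matplotlib 3.10.9. Scripts were tested on simulated data.

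Genes named singly are the paralogues, the Sdh genes, Uqcr10 and, per tissue or pair of tissues, the 3 highest and 3 lowest members. Ndufb8, Ndufc2, Cs, Suclg2, Cyc1, Atpif1, the marker genes named singly and the genes most like Sdhd, Uqcr10 and Ndufb8 were named after their values were seen. The members and the gene lists were chosen with earlier results of these data known. Alternatives tried were quantile normalization, a level filter, another prior, array weights, a replicate block, 1 fit over all arrays, other gene summaries and rank products.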

Additional observations from a re-analysis of the deposited data

Results flagged for a closer look

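In 27 of 108 groups of 7 mice looked at among the named genes and complex scores, the highest or lowest mouse stood apart, with a gap to its neighbour above Dixon's critical value for the share of the group's range. Chance alone gives such a gap in about 1 group in 20 that was not chosen for it. The groups include the sets of Sdhd, Uqcr10 and Ndufb8, which were picked after single mice were seen to stand apart. The 27 of 108 can therefore not be set against that share. Members of a mouse also vary together, so these are not 27 separate signals.

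VAAM 3 was the lowest mouse in BAT for the mean standardised value of all 81 genes, with a gap of 0.845 of the range, and for complex I (0.842), complex II (0.613), complex III (0.771), complex IV (0.643) and complex V (0.822). Among single genes it was lowest in BAT for Cox7a1 (0.703), Cox7a2 (0.628) and Cox6a1 (0.636). Complex II had its lowest value in WAT in VAAM 1 (0.664).

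Sdhd was lowest in water 2 by its representative set in liver (0.809), WAT (0.788) and BAT (0.852), and by its other set in WAT (0.787) and BAT (0.823). Uqcr10 was highest among the VAAM mice in VAAM 5 by its lesser set in liver (0.866), WAT (0.85) and BAT (0.928), and by a second lesser set with gaps of 0.85, 0.748 and 0.921 in the same tissues. The lesser set of Ndufb8 was highest among the water mice in water 2, with gaps of 0.777 in liver, 0.658 in WAT and 0.857 in BAT.

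Cox8b was lowest in BAT in water 1 (0.685), the mouse with the highest skeletal muscle score. Cox6a2 was highest in liver in VAAM 6 (0.661), and Atp5g1 was highest in WAT in VAAM 1 (0.8), 1 of the 3 mice with high epididymis and testis markers there. The cause of these gaps was not tested.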

How the results depend on the processing

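The count of 0 members called for VAAM in each tissue held under quantile normalization, the level filter, the other prior, array weights and with any array left out. It was 2 in liver (Cox8a and Ndufs3) with 1 fit over 42 arrays, 1.22% of members against 1.53% of all sets. By rank products it was 5 in liver, 6 in WAT and 8 in BAT, against the shares of all sets given with that test. On scaled values rank products called 1 in liver (0.61%, against 0.853% of all sets). The median over the 81 genes with 1 array left out ran from -0.365 to -0.078 SD in liver, -0.436 to -0.035 in WAT and -0.521 to -0.056 in BAT. Quantile normalization turned the sign of the VAAM difference of Uqcrh in liver (-0.53 SD), Cox6c, Cox7c and Cox6a2 in WAT (-0.21, -0.42 and -0.67) and Cox7a1, Cox4i2 and Ndufb4 in BAT (0.20, -0.093 and -0.13). The cause was not tested.

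The median difference for BAT against WAT was 1.04 after quantile normalization and 1.20 over genes above the median level. It was 1.13 with a gene as the mean of its sets and 1.31 centred on the median of all sets. The centring, an alternative chosen after seeing the data, subtracted from each array its own median over all sets. These array medians were 6.73 in liver, 6.91 in WAT and 6.77 to 6.78 in BAT. For liver against WAT the median differences were 0.042, 0.22, 0.15 and 0.38, and 0.199 without shared probe sets. There, centring left 0 genes past the limit downwards. For BAT against liver they were 1.09, 0.96, 0.88 and 0.91, and 0.96 without shared sets, and 1 gene was past the limit downwards after quantile normalization. Between liver and WAT, quantile normalization turned Cox7a2 (-0.025), Atp5g3 (-0.061), Cox6a1 (-0.48), Cox4i1 (-0.22), Cox6b1 (-0.18) and Sdha (-0.17), and the mean over sets turned Atp5g2 (-0.14) and Cox6a2 (-0.012). The r of Cox7a1 with the muscle score was -0.649 within the water mice.

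Equal numbers in the water and VAAM groups mark different mice, and their deviations had correlations from -0.191 to 0.478, with at most 2 of 7 closest to their own number. A fit with the replicate number as a block called 0 members in each tissue, with medians of -0.33 SD in liver, -0.28 in WAT and -0.39 in BAT. Across tissues the number gave the closest array in 4 of 14 mice for liver and WAT, 8 for liver and BAT and 10 for WAT and BAT. This is a hint from the data and not from the labels that a number marks 1 animal. Each tissue held every number once, so a block on the number cannot move the tissue medians and does not bear on this.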
